A study of Homo sapiens with 57 samples.

Results

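A set of 10 transcripts of the canonical Wnt pathway were followed in messenger RNA of HCT116 cells, a human colorectal carcinoma line that is known to carry an activating mutation in CTNNB1 and an intact APC. They were picked by transcript identifier, 1 for each of 10 genes, and are 10 of the 228715 transcripts that the tables list. The members are the coreceptors LRP5 and LRP6, the receptor-removing ligases RNF43 and ZNRF3, the R-spondin receptor LGR5, the signal carrier CTNNB1, and the destruction complex components APC, AXIN1, AXIN2 and GSK3B. The tables name no genes, so the symbols come from the list that defines the members, and a value below stands for 1 transcript, not for the sum over a gene.

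The 9 libraries formed 3 groups of 3. All cells carried Spt5-HA-dhfr, a fusion of the elongation factor Spt5 to a degron that trimethoprim stabilises, and were grown without trimethoprim. All also expressed Avi-Spt5(1-820) from a doxycycline-driven vector (pCW57), switched on for 24 hours with 2 ug/ml of the drug, and were kept in McCoy's medium with serum, hygromycin, G418 and blasticidin. What set the groups apart was CTR1 in Avi-Spt5(1-820), which was WT, TA7 or TE7; the labels do not spell these names out. Each form was in a cell line of its own, so form and line cannot be told apart. Spt5 travels with RNA polymerase II, and the comparison asks how steady-state mRNA differed between cells with the 3 forms.

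In the canonical Wnt pathway, a Wnt ligand joins a Frizzled receptor to LRP5 or LRP6, and the occupied coreceptor draws AXIN away from a complex that otherwise marks beta-catenin, the product of CTNNB1, for destruction. Beta-catenin then enters the nucleus and works with TCF and LEF factors. RNF43 and ZNRF3 remove Frizzled and the coreceptors from the cell surface, and R-spondins, bound by LGR5 and its relatives, hold these ligases back. AXIN2, RNF43, ZNRF3 and LGR5 are also known targets of the pathway in the intestine.

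Libraries held 64364751 to 90805283 estimated reads. Libraries were also laid out by their log2 CPM (counts scaled to library size). Along the leading dimension, which held 18.4% of the variance, TE7 was at 2.56 to 3.66. The remaining libraries were at -3.58 to -1.84, apart from the first replicates of WT (0.49) and TA7 (0.65), which were nearer to TE7. Counts of called transcripts are therefore also given without those 2 libraries.

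The sequences of 2 start regions are shown because LRP5 and RNF43 were both lower in TE7 and have very different DNA just upstream of the start. Each is the stretch of 250 bases before the start given by RefSeq for GRCh38.p14, 5′ to 3′ along the gene, which need not be the start of the measured transcript. LRP5 is taken from chr11:68312341-68312590 on the plus strand and RNF43 from chr17:58417535-58417784 on the minus strand. Capitals mark CTTTGT, one of the cores that TCF and LEF factors are known to bind.
LRP5: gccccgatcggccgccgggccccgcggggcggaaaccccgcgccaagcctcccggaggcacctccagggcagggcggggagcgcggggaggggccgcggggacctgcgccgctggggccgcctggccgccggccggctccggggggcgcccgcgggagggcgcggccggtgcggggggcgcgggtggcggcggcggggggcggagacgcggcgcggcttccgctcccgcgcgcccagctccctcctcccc
RNF43: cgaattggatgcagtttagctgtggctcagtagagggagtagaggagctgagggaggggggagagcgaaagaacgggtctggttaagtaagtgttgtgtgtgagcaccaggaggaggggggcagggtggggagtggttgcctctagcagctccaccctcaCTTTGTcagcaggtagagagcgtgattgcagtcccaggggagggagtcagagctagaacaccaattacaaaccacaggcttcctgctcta

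The LRP5 stretch is 87.2% G and C, and its CpG count is 0.911 of that expected from its base content. The RNF43 stretch shown is 56% G and C with a CpG ratio of 0.231, while the median over 35116 such stretches is 58% and 0.558. A further stretch listed for RNF43, not shown, is 45.2% G and C with a CpG ratio of 0. CTTTGA and CTTTGT were searched on both strands: 22.8% of all stretches hold at least 1 of them, 11.2% CTTTGA and 13.7% CTTTGT. Starts were listed for 6 of the 10 genes, with 8 stretches, and only the 2 of RNF43 hold either motif, each a single CTTTGT. A share of 2 in 8 is near that of all stretches. No start was listed for AXIN2, LRP6, LGR5 or ZNRF3, so these genes were not searched. A match is a run of letters, not a binding site, and these data hold no measurement of binding there.

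LRP5, LRP6, RNF43 and ZNRF3 were called lower in TE7 against both WT and TA7, while none of the members was called higher in any comparison. They are the coreceptors and the receptor-removing ligases, and the change against WT ran from 0.54 of the WT level for LRP5 to 0.30 for RNF43. The filter on low counts was passed by 9 members and not by LGR5. In TE7 vs WT 4 of the 9 were called lower and 0 higher, where 9.4% of all 78478 tested transcripts were called, 4.81% lower and 4.59% higher. A call is an adjusted p under 0.05 in edgeR's quasi-likelihood test, with the Benjamini-Hochberg method over all tested transcripts. The median log2 change of the 9 was -0.45, against -0.02 over all tested transcripts. Many of those are low or short, so this is not a like comparison. Among tested transcripts with a mean of 5 CPM or more, 12.8% were called lower and the median was 0.04. The median of those from 4000 up to 8000 bases was -0.16, and of those of 8000 or more -0.43. Without WT replicate 1 and TA7 replicate 1 together, 4 were again called lower in this comparison and 4 in TE7 vs TA7. In that fit 9895 and 5039 of 83377 tested transcripts were called, against 7378 and 2411 of 78478 with all libraries. These 2 libraries were left out because they lay nearest to TE7, so the repeat is no independent check. Without TA7 replicate 3 alone, 0 members were called in TE7 vs TA7. The labels do not say that replicates were separate cultures, so p-values reflect only how these libraries scatter, which may be technical. In bulk RNA, fewer cells with a transcript and less of it per cell cannot be told apart.

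**Figure D1:**
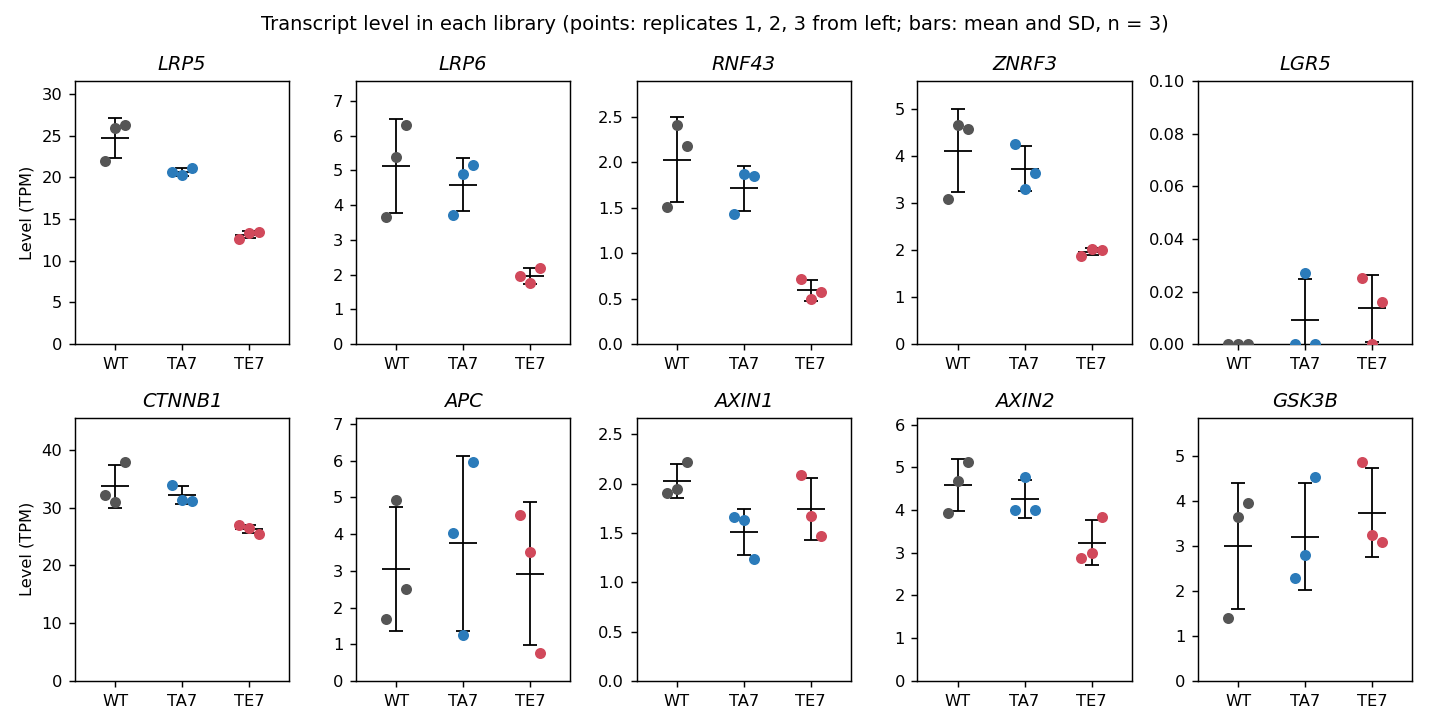
Level of each of the 10 transcripts in TPM (vertical axis, starting at 0) in the WT, TA7 and TE7 libraries; points are libraries and bars the mean and SD of 3. For LRP5, LRP6, RNF43 and ZNRF3 the TE7 points lie below all WT and TA7 points, while APC spreads from 0.749 to 5.98 TPM with the groups mixed.

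Among the coreceptors, LRP5 was the more abundant. Its transcript (ENST00000294304) had a level in TPM, which is scaled to transcript length and library, of 22, 25.9 and 26.3 in WT, 20.6, 20.2 and 21.1 in TA7, and 12.6, 13.3 and 13.5 in TE7. The 3 groups did not overlap, with TE7 lowest and TA7 between. Against WT, LRP5 fell by 0.88 on the log2 scale in TE7 (SE 0.06, edgeR adjusted p = 0.000416), and against TA7 by 0.52 (SE 0.06, adjusted p = 0.00882). The latter call was lost without TA7 replicate 3 (adjusted p = 0.0544). It had the smallest scatter of the members, with a within-group SD of 0.064 on the log2 CPM scale, below that of all but 2.23% of 29320 transcripts between 2 and 200 CPM.

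LRP6 (ENST00000261349), the close relative of LRP5, was at 3.66, 5.39 and 6.31 TPM in WT and 3.71, 4.9 and 5.16 TPM in TA7. In TE7 it was at 1.95, 1.75 and 2.21 TPM. Every TE7 library lay below every other library, and WT replicate 1 and TA7 replicate 1 were the nearest. LRP6 fell by 1.25 on the log2 scale against WT (SE 0.15, edgeR adjusted p = 0.0039) and by 1.06 against TA7 (SE 0.15, adjusted p = 0.0179), to 0.42 and 0.48 of those levels. The call against TA7 was lost in 5 of 21 alternatives, without TA7 replicate 2 or 3 or any 1 of the TE7 libraries (edgeR adjusted p up to 0.0857). By mean TPM it ranked 3 among the members in WT and TA7 and 6 in TE7.

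RNF43 (ENST00000407977) encodes a transmembrane ubiquitin ligase that takes Frizzled receptors off the cell surface. Its level was 1.51, 2.41 and 2.17 TPM in WT, 1.43, 1.87 and 1.85 TPM in TA7, and 0.722, 0.495 and 0.57 TPM in TE7. The TE7 libraries stood clear of all others, with 174 to 234 reads each against 436 to 765 in WT and TA7. This was the change of greatest size among the 9 tested members in both comparisons with TE7: RNF43 fell by 1.72 on the log2 scale against WT (SE 0.20, edgeR adjusted p = 0.00298), a 3.3-fold lower level, and by 1.40 against TA7 (SE 0.20, adjusted p = 0.0166). The call against TA7 was lost in 5 of 21 alternatives: with a replicate block (adjusted p = 0.0549) and without TA7 replicate 2 or 3 or TE7 replicate 2 or 3 (up to 0.078). On the log2(TPM + 1) scale, which understates changes of low transcripts, the change against WT was -0.92.

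ZNRF3 (ENST00000544604), a ligase of the same kind, was at 3.1, 4.66 and 4.58 TPM in WT and at 4.25, 3.3 and 3.64 TPM in TA7. In TE7 it was at 1.88, 2.02 and 2 TPM. The TE7 libraries were close to each other and below all 6 others. ZNRF3 fell by 1.00 on the log2 scale against WT (SE 0.14, edgeR adjusted p = 0.00605) and by 0.78 against TA7 (SE 0.14, adjusted p = 0.0315). The call against TA7 was the least firm of the 4, since 11 of 21 alternative settings lost it, among them the replicate block (adjusted p = 0.0832), with adjusted p from 8.47e-06 to 0.123.

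LGR5 (ENST00000266674), the R-spondin receptor that marks intestinal stem cells, had almost no reads in these cells. All 3 WT libraries had 0 reads for its transcript, which allows up to 3 reads or 0.0466 CPM in the shallowest. The TA7 libraries had 0, 8 and 0 reads and the TE7 libraries 6, 0 and 4. No direction was read from such counts, and without the filter its edgeR adjusted p was 0.434 in TE7 vs WT.

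**Figure D2:**
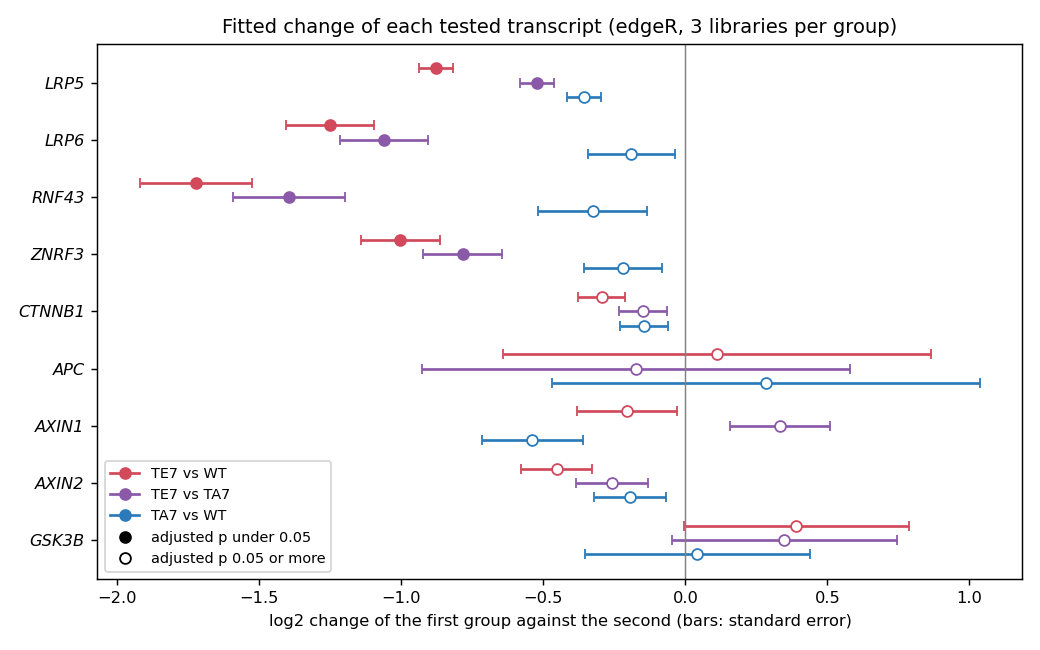
Fitted log2 change of the 9 tested transcripts (horizontal axis, with standard errors) in the 3 comparisons; filled points have an adjusted p under 0.05. The filled points are the 2 comparisons with TE7 for LRP5, LRP6, RNF43 and ZNRF3, from -0.52 to -1.72, and the points of TA7 vs WT are all open.

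CTNNB1 (ENST00000349496), which encodes beta-catenin, was the most abundant member in every group. It was at 32.2, 31 and 38 TPM in WT, 33.9, 31.3 and 31.2 TPM in TA7, and 27, 26.4 and 25.5 TPM in TE7. The TE7 libraries were the lowest 3 of the 9, but the gap was small. The log2 change against WT was -0.29 (SE 0.08, edgeR adjusted p = 0.0683), above the threshold, and over 21 alternatives the adjusted p ran from 0.00859 to 0.207, with 5 of them under the threshold.

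AXIN2 (ENST00000307078) is both a scaffold of the destruction complex and a target of beta-catenin, so it is often used as a readout of the pathway. It was at 3.94, 4.67 and 5.14 TPM in WT, 4, 4.77 and 4.01 TPM in TA7, and 2.89, 2.99 and 3.84 TPM in TE7. All TE7 libraries were lower than all WT libraries, with TE7 replicate 3 nearest. Its log2 change against WT was -0.45 (SE 0.13, edgeR adjusted p = 0.0646), which did not pass. It passed in 3 of 21 alternatives, at adjusted p from 0.00561 to 0.205 over all of them: DESeq2, a filter of 1 CPM in 3 libraries, and the fit without TE7 replicate 3 (adjusted p = 0.042).

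AXIN1 (ENST00000262320), the constitutively expressed scaffold, had a different order of groups. It was at 1.91, 1.94 and 2.22 TPM in WT, 1.66, 1.63 and 1.24 TPM in TA7, and 2.08, 1.67 and 1.47 TPM in TE7. TA7 lay below WT in every library and TE7 overlapped both. The log2 change in TA7 vs WT was -0.54 (SE 0.18, edgeR adjusted p = 0.49) and in TE7 vs WT -0.20 (SE 0.18, adjusted p = 0.545), and neither passed. The latter was -0.087 without TE7 replicate 3 and -0.32 without TE7 replicate 1.

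APC (ENST00000257430), a tumour suppressor and scaffold of the destruction complex, varied far more within groups than between them. Its transcript was at 1.7, 4.93 and 2.5 TPM in WT, 4.04, 1.24 and 5.98 TPM in TA7, and 4.51, 3.5 and 0.749 TPM in TE7. The highest library exceeded the lowest by 2.9-fold in WT, 4.83-fold in TA7 and 6.02-fold in TE7, in no order shared between groups. The transcript had 436 to 2985 reads per library, and its within-group SD of 1.15 on the log2 CPM scale exceeded that of 90.4% of the 29320 transcripts compared. Salmon divides reads shared by transcripts of one gene, and whether such division moved the APC values was not tested. The log2 changes of 0.11 (TE7 vs WT), 0.28 (TA7 vs WT) and -0.17 (TE7 vs TA7) each had an SE of 0.75, so differences of that order could not be detected for this transcript.

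GSK3B (ENST00000316626), the kinase that phosphorylates beta-catenin in the complex, was represented by a transcript of 1636 bases. It was at 1.4, 3.64 and 3.95 TPM in WT, 2.28, 2.79 and 4.55 TPM in TA7, and 4.88, 3.26 and 3.08 TPM in TE7. The groups overlapped and WT replicate 1 was the lowest library. The log2 change of 0.39 in TE7 vs WT (SE 0.40, edgeR adjusted p = 0.618) did not pass, and was 0.089 without WT replicate 1 and 0.18 without TE7 replicate 1.

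By mean TPM the order in WT was CTNNB1 (33.7), LRP5 (24.7), LRP6 (5.12), AXIN2 (4.58), ZNRF3 (4.11), APC (3.04), GSK3B (2.998), RNF43 (2.03), AXIN1 (2.02) and LGR5 (0). CTNNB1 did not overlap with LRP5, nor LRP5 with LRP6, over the 3 libraries, while each neighbouring pair from LRP6 to AXIN1 overlapped. In TE7 the ranks were 3 for GSK3B, 6 for LRP6 and 9 for RNF43.

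No member was called in TA7 vs WT by edgeR, where 0.0612% of all tested transcripts were called, 0.0204% lower and 0.0408% higher, and 2 of the 9, LRP5 and AXIN1, had an unadjusted p under 0.05, as did 7.73% of all tested transcripts. The LRP5 change of -0.36 (SE 0.06) had an edgeR adjusted p of 0.129, and DESeq2, the only one of 21 alternatives to call it, gave 1.94e-08. The 7 members besides LRP5 and AXIN1 ranged from -0.33 for RNF43 to 0.28 for APC. In TE7 vs TA7 4 of 9 were called lower and 0 higher, where 3.07% of all tested transcripts were called, 1.78% lower and 1.29% higher. This count of 4 was 0 without TA7 replicate 3, 1 without TA7 replicate 2, TE7 replicate 2 or TE7 replicate 3, and 2 without TE7 replicate 1. The fits without 1 of those libraries called 298 to 651 of all tested transcripts, against 2411 with every library. The 2 comparisons with WT share the WT libraries, and those with TE7 share the TE7 libraries, so their changes are not independent of each other.

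In CPM with TMM scaling, the TE7 and WT libraries did not overlap for 6 of the 9 members, all lower in TE7: the 4 called members, CTNNB1 and AXIN2. Over all tested transcripts 32.9% did not overlap, 16.1% with TE7 lower and 16.8% with TE7 higher. Against TA7 there were 5 such members, without AXIN2, where 31.5% of all tested transcripts did not overlap, 15.6% lower and 15.8% higher. AXIN2 was at 14.1 CPM in TE7 replicate 3 and at 13.8 and 13.5 CPM in TA7 replicates 1 and 3. In TPM its TE7 libraries were all below its TA7 libraries, so that overlap depends on the scale. For TA7 against WT there were 2 such members, LRP5 and AXIN1, both lower in TA7, where 14.1% of all did not overlap, 6.61% lower and 7.48% higher.

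Related pairs of members were also compared within each library, which takes out any scaling between libraries. The TPM ratio of RNF43 to ZNRF3 was 0.486, 0.517 and 0.475 in WT, 0.336, 0.566 and 0.507 in TA7, and 0.383, 0.245 and 0.285 in TE7. RNF43 was thus lower relative to ZNRF3 in every TE7 library than in any WT library, but TA7 replicate 1 lay inside the TE7 range. The log2 ratio differed by -0.72 between TE7 and WT (exact two-sided permutation p = 0.1, n = 3, the smallest that 3 against 3 allows) and by -0.62 between TE7 and TA7 (exact p = 0.2).

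The ratio of LRP6 to LRP5 was 0.166, 0.208 and 0.24 in WT, 0.18, 0.242 and 0.244 in TA7, and 0.155, 0.131 and 0.164 in TE7. On the TPM scale the TE7 ratios were below all others, with WT replicate 1 just above them. The log2 ratio differed by -0.44 between TE7 and WT and by -0.56 between TE7 and TA7 (each exact permutation p = 0.1, n = 3). With estimated counts in place of TPM, TE7 and WT overlapped, at a difference of -0.36 (exact permutation p = 0.2). With the trend with length removed, the changes of LRP6 and LRP5 against WT were -0.81 and -0.70. The ratio of AXIN2 to AXIN1 had means of 2.26 in WT, 2.84 in TA7 and 1.87 in TE7 (geometric, n = 3). TA7 was above WT in every library, by 0.33 on the log2 scale (exact permutation p = 0.1, n = 3). TE7 overlapped both, and its difference was -0.61 against TA7 (exact permutation p = 0.2) and -0.27 against WT (exact permutation p = 0.4), the latter from -0.059 without TE7 replicate 1 to -0.52 without TE7 replicate 3. Over the family of 9 tests the smallest Benjamini-Hochberg adjusted p was 0.225, so no ratio passed.

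**Figure D3:**
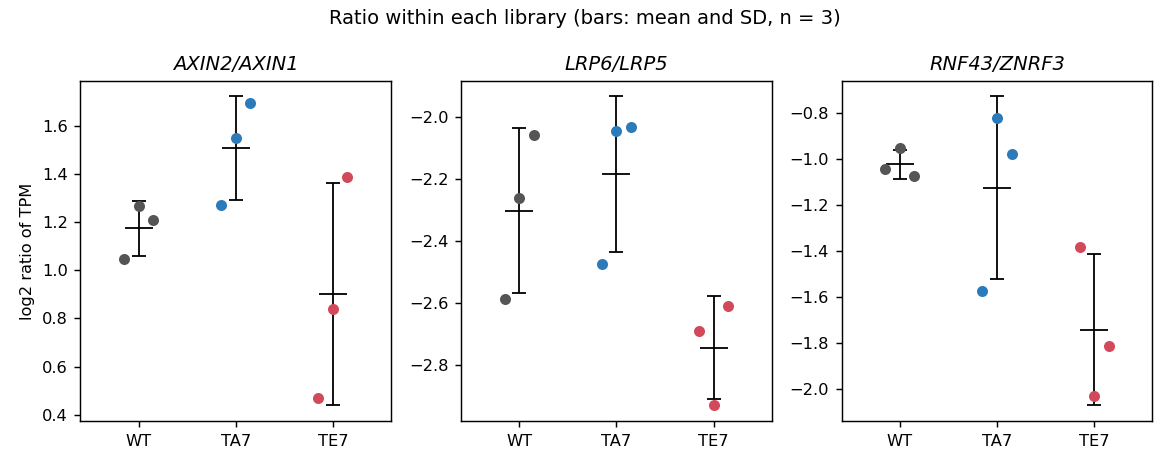
Log2 of the TPM ratio of 3 pairs of related transcripts within each library (vertical axis), with the mean and SD of 3. The TE7 points for LRP6 over LRP5 lie below all others, at -2.61 to -2.93, and those for RNF43 over ZNRF3 lie below all WT points.

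Across the 9 libraries the level of LRP6 was most like that of RNF43 (Pearson r = 0.979 of log2 CPM), and that of LRP5 most like ZNRF3 (r = 0.947). After each group's mean was taken away these values were 0.726 and 0.616. The points share their libraries and scaling, and the TE7 libraries stand apart from the others for these 4 members, so the r values only describe which members moved side by side. APC and GSK3B were most like each other, at r = 0.43, or 0.521 once the group means were taken away. AXIN2 and CTNNB1 were each most like LRP5, at r = 0.846 and 0.779, and these values became 0.143 and -0.273. AXIN1 was most like CTNNB1, at r = 0.476, which became 0.658.

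The called members are long transcripts, and long transcripts as a whole were lower in TE7. LRP5 has 5177 bases, RNF43 5516, ZNRF3 6872 and LRP6 10252. Of 6 tested members of 4000 bases or more, 4 were called lower in TE7 vs WT, and of 3 shorter ones 0 were. In the length class of CTNNB1 (3661 bases) and AXIN1 (3707), 5.14% of tested transcripts were called lower, or 10.2% at 5 CPM or more. In that of GSK3B (1636 bases) the shares were 2.85% and 5.87%. With shares this low, a count of 0 in 3 cannot tell the shorter members from other transcripts of their length. Among all tested transcripts from 4000 up to 8000 bases 13.1% were called lower, or 22% of those at 5 CPM or more, and among those of 8000 or more the shares were 22.8% and 32.4%. Transcripts of 4000 bases or more took 19.0% to 19.9% of reads in the TE7 libraries and 20.4% to 24.8% in the others, with WT replicate 1 lowest among those.

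Set beside transcripts of the same length at 5 CPM or more, the members still differed in position. RNF43 was lower than all but 2.56% of its length class, ZNRF3 than all but 9.15%, LRP5 than all but 11.7% and LRP6 than all but 13.4%. For AXIN2, of 4260 bases, 29.1% of the class was lower, and for APC, of 10704 bases, 85.3%. With each library's trend with length removed, the log2 changes against WT were -1.51 for RNF43, -0.81 for LRP6, and -0.70 for both LRP5 and ZNRF3, and all 4 still passed (edgeR adjusted p of 0.00296, 0.00269, 0.00128 and 0.0229). In TE7 vs TA7 3 passed in that fit, at -1.18 for RNF43, -0.63 for LRP6 and -0.33 for LRP5 (edgeR adjusted p of 0.0209, 0.0202 and 0.0468). ZNRF3, at -0.49, did not (adjusted p = 0.123).

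Fragment length moved with the groups as well. The mean fragment, read from length minus effective length of transcripts with no reads, was 168 to 169 bases in TE7, 157 to 166 in WT and 150 to 166 in TA7. With the effective lengths as offsets the 4 changes against WT were -0.85 (LRP5), -1.31 (LRP6), -1.70 (RNF43) and -0.99 (ZNRF3), and all 4 again passed. Fragments of 150 to 169 bases differ by little beside transcripts of 5177 bases or more, so the fragment part of the offset could hardly move these calls. Whether fragment length bears on the levels in other ways was not tested. Effective lengths of RNF43 ran from 5472 to 5598 against a length of 5516 bases, so the TPM values carry a correction beyond fragment length.

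**Figure D4:**
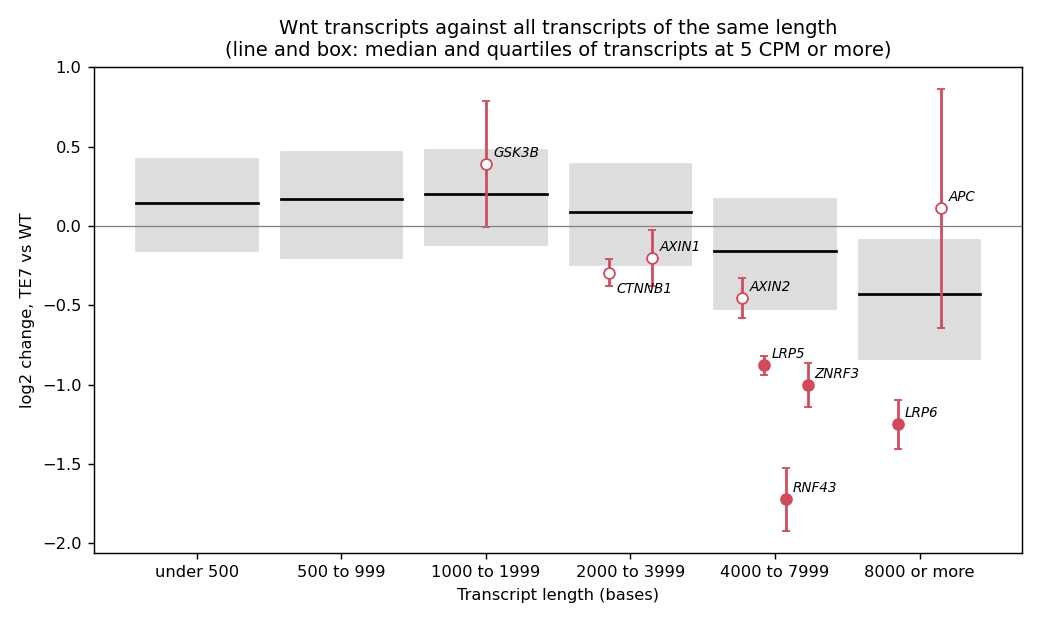
Log2 change in TE7 vs WT (vertical axis) of the 9 tested members with standard errors, placed by length class in bases (horizontal axis), over the median (line) and quartiles (box) of all transcripts of the class at 5 CPM or more. The median falls to -0.43 at 8000 bases or more, and LRP5, ZNRF3, RNF43 and LRP6 lie below the box of their class, as CTNNB1 does by a small margin.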

How the data were processed

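Messenger RNA was taken with Trizol and oligo-dT selection, and 1 ug entered a Tecan/Nugen library kit, per the labels' protocols. The submitters' processing notes name cutadapt 2.3, Salmon 1.3.0 and hg19; which transcript set was indexed, and any correction for bias, is not given in the sources used here. The estimated counts deposited by the authors divide reads shared by several transcripts, and the TPM deposited by the authors is per effective length. The other 48 of the 57 samples are not analysed here. The members, lists and tests were chosen with earlier results of these data known.

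Estimated counts were rounded, filtered with edgeR 4.0.16 defaults (78478 of 228715 transcripts tested, holding 99.67% to 99.79% of reads), scaled with TMM factors and fitted in 1 quasi-likelihood model over 9 libraries, with Benjamini-Hochberg adjustment over all tested transcripts. Standard errors are the log2 change over the root of its F value. CPM is the count scaled to library size by the usual factor. All 10 members were named whatever their values. The gene tables held 0 rows that pair a transcript with a gene, so other Wnt genes and cell type markers were not analysed here. In simulated counts for TE7 vs WT, 200 of 72517 tested transcripts were changed, each at 5 CPM or more. The test recovered 21% of 2-fold and 69% of 4-fold changes. Far more transcripts, 7378, were called in the data, so these shares need not hold for the reported test. Read counts and limits cover counting error only, since reads were not matched to molecules. The labels do not say whether replicate numbers pair the libraries. Deviations of same-numbered libraries correlated at -0.03 to 0.14 and passed 0.1 in 1 of 9 pairs, WT and TA7 replicate 1. Low correlations over many transcripts cannot show that pairing is absent, so a replicate block was among the alternatives. Alternatives were DESeq2 1.42.0, limma 3.58.1 on log2(TPM + 1) and log2(TPM + 0.1), other scalings and filters, a replicate block, effective length offsets and leaving out libraries. Removing the length trend and leaving out 2 libraries together were added after seeing the data.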

Additional observations from a re-analysis of the deposited data

How the results depend on the processing

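The calls of LRP5, LRP6, RNF43 and ZNRF3 in TE7 vs WT held under all 21 alternatives, with 4 to 6 members called, all lower. The 6 came with DESeq2, which called 15850 of 78478 tested transcripts, and the 1 CPM filter, which called 9264 of 43897. The reported fit called 7378 of 78478. CTNNB1 and AXIN2 gained a call under 5 and 3 of the alternatives. The count for TE7 vs TA7 was 4 in the reported fit. Leaving out 1 library gave 0 to 4, in fits that called 298 to 4782 of all tested transcripts. With a replicate block the count was 2, where 1097 of 78478 tested transcripts were called. In that block RNF43 and ZNRF3 lost their calls (edgeR adjusted p = 0.0549 and 0.0832); it changed no other call. The count for TA7 vs WT was 0 in edgeR and 1, LRP5, in DESeq2, which called 2206 of 78478 tested transcripts against 48. Leaving out 1 library gave 0 throughout. APC changed sign in TE7 vs WT on log2(TPM + 1) (-0.12) and log2(TPM + 0.1) (-0.25), and in TE7 vs TA7 once the trend with length was taken out (0.25). With both WT replicate 1 and TA7 replicate 1 left out, APC was -0.13 in TE7 vs WT and -0.039 in TA7 vs WT, and GSK3B -0.072 in TA7 vs WT. Leaving out 1 library gave APC -0.34 to 0.63 in TE7 vs WT, -0.17 to 0.80 in TA7 vs WT and -0.63 to 0.29 in TE7 vs TA7, and GSK3B -0.29 to 0.24 in TA7 vs WT. In TA7 vs WT the log2 ratio of LRP6 to LRP5 ran from -0.024 to 0.26 and that of RNF43 to ZNRF3 from -0.25 to 0.12. The cause was not tested. With 0 to 8 reads per library LGR5 is left without a direction, and the scatter of APC leaves APC without one as well.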
